A study of Danio rerio with 4 samples.

Results

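Genes of the contractile apparatus and of calcium handling in muscle were followed in RNA libraries labelled as pools of entire zebrafish larvae at 5 days after fertilisation. The genes were taken from the deposited table by symbol, as all rows whose zebrafish Ensembl symbol begins with a myosin, troponin, tropomyosin, titin, nebulin, alpha-actinin, sarcomeric actin, myosin-binding protein, telethonin, muscle creatine kinase, parvalbumin, calsequestrin, ryanodine receptor, Serca1, Cacng1 or Smyd1 stem. This gave 117 of the 31953 genes in the table, of which 26121 had a symbol. By form, 32 were fast skeletal, 8 slow skeletal, 16 cardiac, 27 shared by striated muscles and 14 smooth muscle or non-muscle, and 13 could not be sorted. A further 7 belong to another tissue or function, among them 3 genes caught by their spelling alone, the thiopurine methyltransferase genes tpmt.1 and tpmt.2 and the kinase gene TNNI3K.

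Per the labels, the mutant larvae carried the hi272 allele of uhrf1, a chromatin factor that guides maintenance DNA methylation. The siblings were larvae of the same clutches that looked normal. They were sorted by appearance and their genotype is not stated further, so carriers may be among them. Each of the 2 groups had 2 libraries, and pools of 10 to 20 larvae were taken from 2 clutches at 120 h. Replicate numbers are not linked to clutches in the labels, so spread and p-values refer to these libraries only. In the header of the count table the siblings bear the name ABNYU and the mutants the number of their allele, and whether ABNYU marks another stock was not tested.

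Striated muscle contracts when myosin heads of the thick filament pull on actin thin filaments. Calcium released from the sarcoplasmic reticulum through ryanodine receptors binds troponin C, and troponin and tropomyosin then uncover the actin. Serca pumps return calcium to the store, where calsequestrin holds it, and parvalbumin binds calcium in the cytosol of fast fibres. Fast, slow and cardiac muscle use different genes for most of these parts, and teleosts carry several copies of many. In a swimming zebrafish larva most of the trunk muscle is fast muscle, with slow fibres near its surface.

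The libraries held 571978 and 564941 gene reads for mutants, against 613370 and 812167 for siblings. The targeted gene uhrf1 had 7 and 9 reads among the mutant pools, against 2 and 17 among the siblings, with overlapping groups and too few reads for the test, so it does not check the labels. For libraries labelled as entire larvae, those of the siblings held few muscle reads and many liver reads. A list of 20 hepatocyte genes took 0.701% and 0.441% of gene reads in mutants, against 22.7% and 18.1% in siblings, and 18 of 20 were lower in mutants, with 19 and 19 of them at 1 read or more in the mutant libraries. Of 13 exocrine pancreas genes, the sum was 0.00455% and 0.00443% of gene reads in mutants, against 0.0623% and 16.8% in siblings. A chi-square over genes between replicates gave 1.31 per degree of freedom for mutants and 35.5 for siblings, where sampling noise alone gives about 1. In bulk RNA, fewer muscle cells and less muscle RNA per cell cannot be told apart, and library make-up and genotype coincide in this design. Whether the sibling libraries hold entire larvae, as labelled, or mostly liver and other digestive tissue was not tested, and every mutant-over-sibling value given here depends on it. Directions are therefore given for these libraries and not for the mutation.

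Reads of the 117 muscle genes took 13.2% and 12.5% of gene reads in mutants, against 0.167% and 0.0878% in siblings. Their summed level was 78924 ± 4578 CPM in mutants and 2366 ± 562 CPM in siblings (CPM, read counts per 1000000 TMM-scaled gene reads, mean ± SD, n = 2 libraries per group), and the groups did not overlap. Of 79 genes that passed the count filter, 66 were higher and 2 lower in mutants (edgeR's quasi-likelihood test at a Benjamini-Hochberg adjusted p under 0.05). Over all 8133 tested genes 35.2% were higher and 25.9% lower. The median log2 fold change, mutant over sibling, was 5.71 for the 79 muscle genes, or 4.46 using the lower bound where siblings had 0 reads. Over all tested genes it was 0.48. A gene could pass the filter through its mutant reads alone, so the count over tested genes does not stand for all 117. The other 38 muscle genes had too few reads for the test, and 4 of these, actc1c, a copy of CACNG1 (ENSDARG00000052360), of TNNT2 (ENSDARG00000100694) and of TNNI1 (ENSDARG00000000474), had 0 reads in every library. At 3 reads as the floor, 0 reads allow up to 3.25 and 3.22 CPM in the mutant libraries and 8.11 and 8.28 CPM in the sibling libraries, for counting error only. Leaving out mutant replicate 1, 38 of 77 tested muscle genes rose and 0 fell (over all genes 3.86% and 10.5%). When mutant replicate 2 was left out instead, 50 of 79 tested muscle genes rose and 1 fell (over all genes 8.32% and 14.3%). The same counts were 60 and 1 with sibling replicate 1 left out (16.5% and 19.4% of all genes) and 65 and 2 with sibling replicate 2 left out (23.7% and 21.9%). DESeq2 called 59 higher and 1 lower (21.0% and 20.4% of all genes), and with no count filter 58 of 113 rose and 2 fell (6.45% and 6.13%). Scaling to total counts or to ribosomal protein genes moved the median log2 fold change of all genes to 2.17 and 3.11, and 76 and 77 of the 79 then rose, against 68.7% and 79.1% of all genes, while 1 and 0 fell, against 12.5% and 8.05%.

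By form, fast genes summed to 34631 ± 3177 CPM in mutants and 623 ± 346 CPM in siblings, and genes shared by striated muscles to 42401 ± 1242 CPM in mutants and 789 ± 299 CPM in siblings. Those sums were 55.6-fold and 53.8-fold higher in mutants. With sibling replicate 1 left out they were 91.6-fold and 73.5-fold higher, and as shares of unscaled gene reads 163-fold and 161-fold. Of 27 tested fast genes 24 rose and 0 fell, and of 21 tested shared genes 20 rose and 0 fell. The shares over all tested genes were 35.2% higher and 25.9% lower. Among these fast and shared genes, 2 and 4 had 0 reads in both siblings and passed the count filter through mutant reads alone. The median log2 fold change was 5.97 for fast genes and 5.87, or 5.79 using the bound where siblings had 0 reads, for shared genes. Slow genes held 70 and 81 reads in the mutant libraries, against 5 and 2 in siblings, and both that could be tested rose. This slow class leaves out the smyhc genes, whose symbols begin otherwise, and does not describe slow muscle as a whole. A list that holds them had 616 and 659 mutant reads against 0 and 4 sibling reads. Cardiac genes came to 255 and 197 reads in the mutant libraries, against 18 and 29 in siblings. Of 6 tested cardiac genes 5 rose and 1 fell, beside 35.2% and 25.9% of all tested genes. Among these 6, 3 drew 0 sibling reads and could be tested only because of their mutant reads. The gene that fell, tpm4a, supplied all 18 cardiac reads of sibling replicate 1 and 24 of 29 in sibling replicate 2. Once tpm4a was set aside, the sibling sums were 0 and 5 and the mutant sums 227 and 178. Leaving aside the 7 genes of other tissue or function, smooth and non-muscle forms had the smallest ratio of sums, 1.75-fold (5.52-fold as shares of gene reads). They stood at 902 ± 50.3 CPM in mutants and 516 ± 79.2 CPM in siblings, with 6 of 11 tested higher, 1 lower and a median log2 fold change of 0.96. Those 7 genes summed to 85.3 ± 12.9 CPM in mutants and 140 ± 135 CPM in siblings, a ratio of 0.61. With mutant replicate 1 left out, the classes held 19 fast, 16 shared, 0 slow, 0 cardiac and 1 smooth or non-muscle genes that rose. With mutant replicate 2 left out they held 23, 17, 1, 3 and 2, and 1 slow gene rose with either sibling library left out or with DESeq2. Over all tested genes, too, a smaller share rose when a mutant library was left out. With total-count or ribosomal protein scaling 10 of the 11 smooth or non-muscle genes rose, where 68.7% and 79.1% of all tested genes rose. With no count filter 3 rose, where 6.45% of all genes rose.

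**Figure D1:**
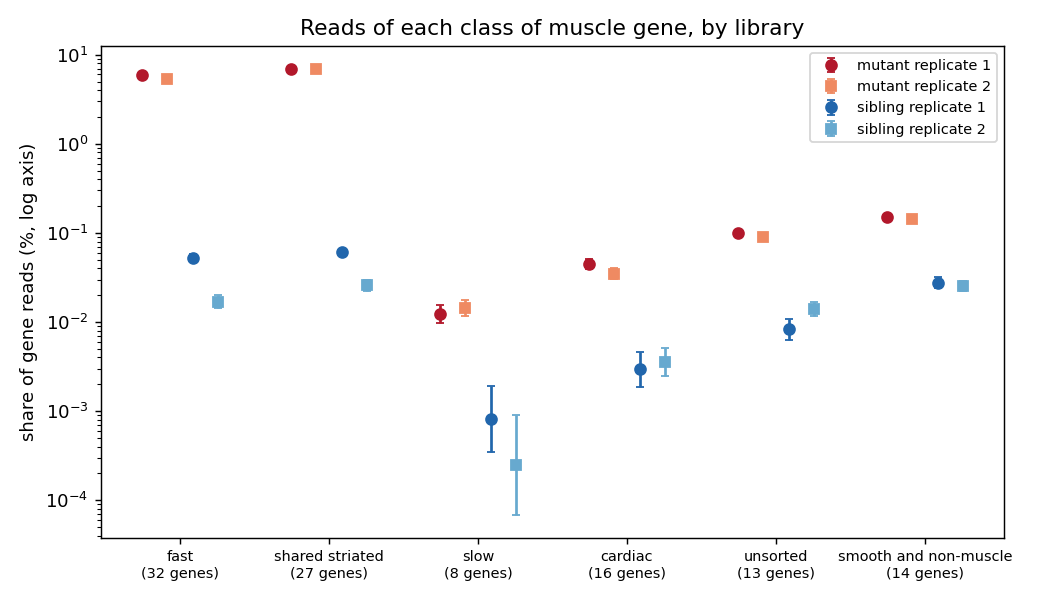
Share of all gene reads in each library (percent, log axis) taken by the fast, shared striated, slow, cardiac, unsorted and smooth or non-muscle genes, with Wilson 95% intervals for counting error. Fast genes took 5.94% and 5.34% in the mutant libraries against 0.0523% and 0.0169% in the sibling libraries, and the smooth and non-muscle genes lay closest together. The slow class leaves out the smyhc genes, whose symbols begin otherwise.

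**Figure D2:**
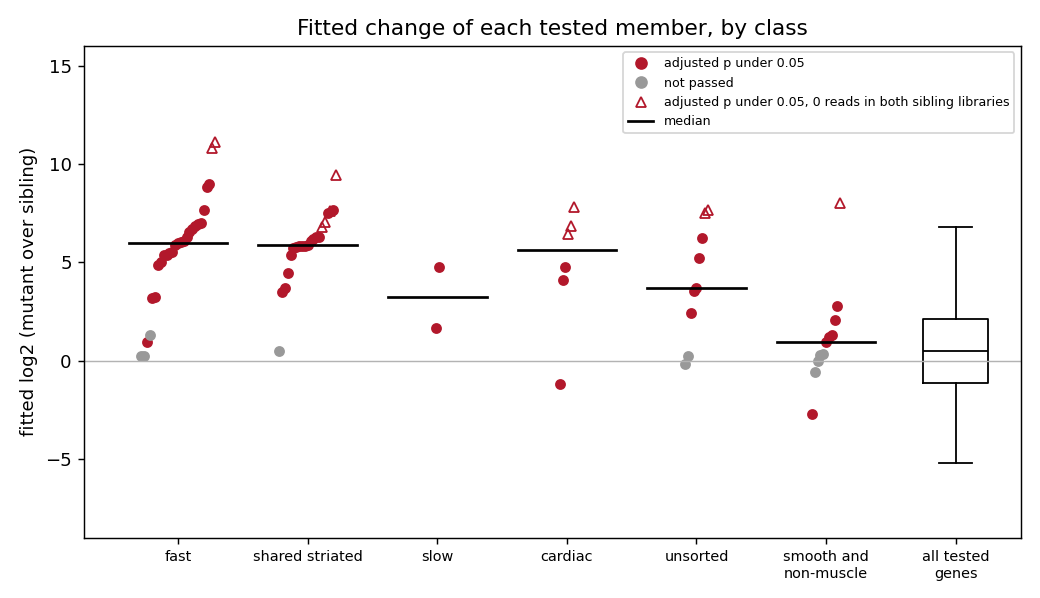
Fitted log2 fold change (mutant over sibling) of each tested muscle gene by class, with the class median as a line and, at the right, a box for all 8133 tested genes (box, quartiles and median; whiskers, 5th to 95th percentile). Open triangles have 0 reads in both sibling libraries, so their height depends on the fit and is no bound; the fast median was 5.97 and the smooth and non-muscle median 0.96.

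Myosin heavy chains carry the motor. Of 17 tested heavy chain genes, 14 rose and 0 fell, where 35.2% of all tested genes rose and 25.9% fell. The fast gene myhz1.1 (ENSDARG00000067990) had read counts of 7044 and 6141 in mutants, against 12 and 14 in siblings. The lowest mutant library was far above the highest sibling library, and the rise was 7.64 ± 0.47 on the log2 scale (± SE; edgeR, Benjamini-Hochberg adjusted p = 4.40e-08). Its neighbour in name myhz1.2 had 3294 and 2803 mutant reads against 2 and 17 sibling reads, a rise of 6.97 ± 0.82 (edgeR adjusted p = 2.58e-04), and its sibling libraries differed between themselves. The fast gene myhz1.3 rose by 8.99 ± 0.52, at 2177 ± 231 CPM in mutants and 4.11 ± 1.99 CPM in siblings. For myhz2 there were 1654 and 1659 mutant reads against 27 and 5 sibling reads, a rise of 5.35 ± 0.63 (edgeR adjusted p = 8.34e-05, and 0.0504 without mutant replicate 1). These myhz genes are close paralogs, and how reads matching several of them were assigned is not given in the sources used here, so their values are uncertain individually. Outside the naming rule, the fast genes myha and myhc4 also rose, by 6.30 ± 0.67 and 6.05 ± 0.50, as did myh7ba and myh7bb, the non-muscle MYH10 and the other MYH9 gene. myh14, sorted with smooth and non-muscle forms, had 40 and 51 mutant reads against 0 in both siblings. It was at least 11.98-fold higher (edgeR adjusted p = 6.50e-05), the largest rise among the tested genes of that class.

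A pair of fast heavy chains did not follow them, and both are singled out after their values were seen. myhz1.1l had 146 and 59 mutant reads against 65 and 5 sibling reads, with overlapping groups and a log2 fold change of 0.22 ± 1.31 (edgeR adjusted p = 0.902). myhb had 34 and 17 mutant reads against 7 and 1 sibling reads (1.32 ± 0.67, edgeR adjusted p = 0.104). Within the fast heavy chain reads of a library, myhz1.1l took 0.992% (0.844% to 1.17%) and 0.457% (0.354% to 0.589%) in mutants (Wilson 95% interval). It took 56.5% (47.4% to 65.2%) of 115 reads in sibling replicate 1 and 10.6% (4.63% to 22.6%) of 47 reads in sibling replicate 2. myhz1.1 itself took 47.9% and 47.5% in mutants and 10.4% and 29.8% in siblings.

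**Figure D3:**
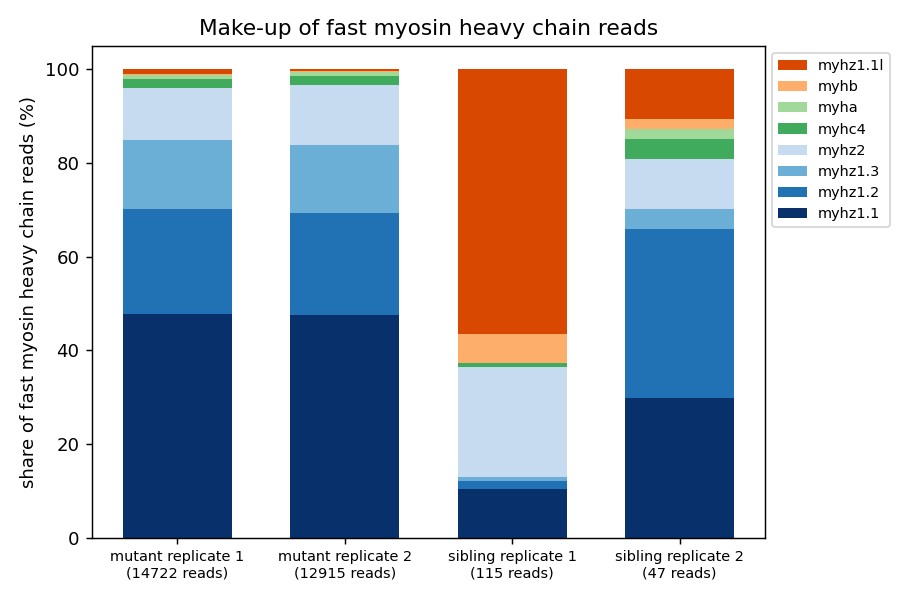
Make-up of the fast myosin heavy chain reads of each library (percent of 14722, 12915, 115 and 47 reads). In the mutant bars myhz1.1 stood at 47.9% and 47.5%, while myhz1.1l took 56.5% in sibling replicate 1 and 10.6% in sibling replicate 2.

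Among heart chains, chosen after their values were seen, the MYH6 gene ENSDARG00000079564 had 74 and 62 mutant reads against 0 and 3 sibling reads, a rise of 4.10 ± 0.64 (edgeR adjusted p = 1.33e-04). MYH7, the ventricular and slow form in mammals, had 21 and 10 mutant reads against 0 in both siblings, at least 4.08-fold higher against 3 reads over the sibling group. With mutant replicate 1 left out, the rises of ENSDARG00000079564 and MYH7 were no longer called. Another heart chain gene, myh6 (ENSDARG00000090637), had 1 and 1 mutant reads against 0 and 1 sibling reads, with overlapping groups and too few for the test. The non-muscle chain gene MYH9 (ENSDARG00000001014) had 193 and 174 mutant reads against 23 and 51 sibling reads. It rose by only 0.96 ± 0.38 (edgeR adjusted p = 0.0404), and this call was lost without any of mutant replicate 1, mutant replicate 2 and sibling replicate 1 (adjusted p = 0.297, 0.195 and 0.108).

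Myosin light chains sit on the neck of the motor. Of 9 tested, 6 rose and 1 fell, where 35.2% of all tested genes rose and 25.9% fell. MYL11, the regulatory light chain of fast muscle, is given to a pair of genes. ENSDARG00000053254 had read counts of 3391 and 3162 in mutants, against 45 and 17 in siblings, or 3536 ± 201 CPM in mutants and 84.3 ± 52.8 CPM in siblings, a rise of 5.39 ± 0.49 (edgeR adjusted p = 1.16e-06). ENSDARG00000002589 had 404 and 389 mutant reads against 0 in both siblings, at least 104-fold higher. The essential fast light chain MYL1 is likewise a pair, of which ENSDARG00000017441 had 1797 and 1576 mutant reads against 8 and 6 sibling reads, a rise of 6.56 ± 0.42, and ENSDARG00000014196 had 194 and 173 mutant reads against 3 and 0 sibling reads, a rise of 5.53 ± 0.61. The unsorted light chains myl10 and myl13, outside the naming rule, rose by 5.22 ± 0.56 and 6.21 ± 0.69. All fast light chains were high in both mutant libraries and at 45 reads or fewer in the siblings.

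The light chains of smooth muscle and other cells did not share this. myl12.1 had 79 and 68 mutant reads against 17 and 28 sibling reads, with a log2 fold change of 0.37 ± 0.36 that did not pass (edgeR adjusted p = 0.395), though it rose with total-count and ribosomal protein scaling, at 2.09 and 3.04. MYL12A had 9 and 10 mutant reads against 23 and 27 sibling reads and fell, at -2.71 ± 0.39 (edgeR adjusted p = 6.40e-05). Its value was -0.07 with ribosomal protein scaling, and without mutant replicate 1 its adjusted p was 0.0525. The cardiac light chain genes were close to absent everywhere. MYL7, myl4 and both MYL2 genes had 6 reads or fewer in each library, and 0 in both sibling libraries, so none could be tested.

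Troponin makes the thin filament sensitive to calcium. All 10 tested troponin genes rose, where 35.2% of all tested genes rose, and 15 troponin genes had too few reads. Of the 10, 2 had 0 reads in both siblings and passed the count filter through mutant reads alone. TNNC2, the calcium-binding subunit of fast muscle, had read counts of 581 and 485 in mutants, against 5 and 1 in siblings, a rise of 6.10 ± 0.49 (edgeR adjusted p = 3.57e-07). TNNT3, the fast subunit that holds troponin to tropomyosin, had in its gene ENSDARG00000068457 1198 and 1035 mutant reads against 12 and 3 sibling reads, a rise of 5.87 ± 0.51. In both, no sibling library reached a mutant one.

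TNNI2, the inhibitory subunit of fast muscle, is the symbol of 6 zebrafish genes. ENSDARG00000029069 had 671 and 638 mutant reads against 1 and 0 sibling reads, a rise of 8.82 ± 0.59 (edgeR adjusted p = 7.45e-08). ENSDARG00000029995 had 95 and 77 mutant reads against 2 and 5 sibling reads, a rise of 3.25 ± 0.48, with an adjusted p of 0.0509 without mutant replicate 1. In contrast ENSDARG00000005841 had 126 and 131 mutant reads against 37 and 15 sibling reads, a rise of 0.97 ± 0.39 (edgeR adjusted p = 0.0473). That call was lost without mutant replicate 1, mutant replicate 2 or sibling replicate 2 (adjusted p = 0.275, 0.247 and 0.127), and the value was 1.78 without sibling replicate 1. Of all TNNI2 reads, ENSDARG00000005841 took 14.0% (11.9% to 16.5%) and 15.4% (13.1% to 17.9%) in mutants, against 86.0% (72.7% to 93.4%) and 75.0% (53.1% to 88.8%) in siblings (Wilson 95% interval). The other 3 TNNI2 genes had 4 reads or fewer in each library. These genes are close in sequence as well as name, so the split of reads between them is uncertain.

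Outside the naming rule, the second TNNT3 gene, ENSDARG00000030270, had 42 and 42 mutant reads against 1 and 0 sibling reads and rose, and the unsorted tnnt2d and tnnt2e had 33 and 32 mutant reads against 0 in both siblings and 39 and 34 mutant reads against 0 in both siblings, at least 8.56-fold and 9.61-fold higher.

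Slow and cardiac troponins were low in every library. Of the slow set, TNNC1 (ENSDARG00000037539), chosen after its values were seen, had 34 and 44 mutant reads against 1 and 0 sibling reads, a rise of 4.76 ± 0.80 (edgeR adjusted p = 2.30e-04). That call did not hold with mutant replicate 1 left out. The slow genes TNNT1, tnnt2c, tnni1c and tnni1d and the TNNI1 gene ENSDARG00000052708 had between 1 and 7 reads in each mutant library and 0 or 1 in each sibling library. Cardiac tnnc1a and TNNT2 had 3 reads or fewer in each library.

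Tropomyosin lies along actin, and here the family split. tpma, the chief tropomyosin of trunk muscle, had read counts of 1969 and 1766 in mutants, against 6 and 2 in siblings, or 2016 ± 170.1 CPM in mutants and 10.9 ± 7.57 CPM in siblings, a rise of 7.50 ± 0.51 (edgeR adjusted p = 8.46e-08). TPM4 rose by 1.19 ± 0.37 (edgeR adjusted p = 0.0132; 0.155 without mutant replicate 1 and 0.102 without mutant replicate 2). TPM2, with 109 and 94 mutant reads against 22 and 34 sibling reads, and tpm3, with 159 and 141 mutant reads against 37 and 95 sibling reads, did not pass, at 0.52 ± 0.35 and -0.16 ± 0.40. Both rose with total-count scaling, at 2.24 and 1.61, and with ribosomal protein scaling, at 3.19 and 2.57. With sibling replicate 2 left out they also passed, at 0.91 and 0.73. tpm1, outside the naming rule, had 38 and 32 mutant reads against 9 and 14 sibling reads (0.26 ± 0.39). The heart-expressed tpm4a had 28 and 19 mutant reads against 18 and 24 sibling reads and fell, at -1.17 ± 0.38 (edgeR adjusted p = 0.0162), but its value was 0.54 with total-count scaling and it rose with ribosomal protein scaling, at 1.49. That fall did not pass without any single library, with adjusted p between 0.0581 and 0.31. tpma took 82.3% and 82.9% of tropomyosin reads in mutants and 5.46% and 1.11% in siblings, where tpm3 took 33.6% and 52.8%.

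Sarcomeric actins form the thin filament. All 4 tested rose, where 35.2% of all tested genes rose. Of the 4, 1 had 0 reads in both siblings and passed the count filter through mutant reads alone. actc1b, used by zebrafish skeletal muscle despite its cardiac name, had read counts of 5822 and 5029 in mutants, against 42 and 22 in siblings, a rise of 6.07 ± 0.47 (edgeR adjusted p = 2.63e-07). Of the skeletal actin genes named ACTA1, ENSDARG00000055618 had 494 and 334 mutant reads against 3 and 1 sibling reads and ENSDARG00000036371 had 101 and 74 mutant reads against 2 and 1 sibling reads, rises of 6.31 ± 0.51 and 4.46 ± 0.56. Cardiac actc1a had 45 and 34 mutant reads against 0 in both siblings, at least 10.4-fold higher, with an adjusted p of 0.0715 without mutant replicate 1. Actin coding sequences are nearly the same between genes, so reads may be split between them.

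The giant proteins and the thick filament followed the fast set. Titin, the spring that spans from Z-disc to M-band, is encoded by a pair of genes that both bear the symbol TTN. ENSDARG00000028213 had read counts of 12465 and 12563 in mutants, against 132 and 58 in siblings, and ENSDARG00000000563 had 11990 and 12267 mutant reads against 111 and 58 sibling reads. They rose by 5.71 ± 0.50 and 5.83 ± 0.48 on the log2 scale (edgeR adjusted p = 8.43e-07 and 4.50e-07), and in each sibling replicate 1 stood above sibling replicate 2. NEB, the nebulin ruler of thin filaments, had 2000 and 2010 mutant reads against 20 and 7 sibling reads, a rise of 5.87 ± 0.49. The myosin-binding gene mybphb had 425 and 385 mutant reads against 1 and 3 sibling reads, a rise of 6.27 ± 0.48. MYBPC3, the cardiac myosin-binding protein, had 40 and 38 mutant reads against 0 and 1 sibling reads, a rise of 4.76 ± 0.78 (edgeR adjusted p = 1.95e-04, and 0.062 without mutant replicate 1). MYBPC1, the slow form, had 21 and 20 mutant reads against 3 and 2 sibling reads and the telethonin gene tcap 23 and 14 mutant reads against 0 and 1 sibling reads, and both rose, at 1.67 ± 0.58 and 3.69 ± 0.94, outside the naming rule. mybpc2b, a fast form singled out after its values were seen, had 21 and 21 mutant reads against 3 and 11 sibling reads and did not pass (0.24 ± 0.53).

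Alpha-actinin crosslinks actin at the Z-disc. The fast genes actn3a and actn3b had 541 and 491 mutant reads against 3 and 0 sibling reads for the first and 428 and 372 mutant reads against 5 and 2 sibling reads for the second, and rose by 7.02 ± 0.58 and 5.47 ± 0.45. The non-muscle ACTN1 had 74 and 65 mutant reads against 4 and 4 sibling reads, a smaller rise of 2.76 ± 0.44 (edgeR adjusted p = 1.57e-04). Non-muscle actn4 had 46 and 49 mutant reads against 18 and 20 sibling reads, at 51.2 ± 1.90 CPM in mutants and 51.9 ± 4.64 CPM in siblings, with a log2 fold change of -0.02 ± 0.34 whose sign turned under several settings, up to 2.63 with ribosomal protein scaling. actn2b had too few reads to be tested.

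Genes of the calcium store and its release apparatus rose in 9 of 9 tested cases, with 2 untested, where 35.2% of all tested genes rose. Of the 9, 4 had 0 reads in both siblings and passed the count filter through mutant reads alone. The summed level of the group, untested genes included, was 4890.5 ± 469.5 CPM in mutants and 70.7 ± 41.4 CPM in siblings. atp2a1, the Serca1 pump of fast muscle, had read counts of 2603 and 2341 in mutants, against 14 and 5 in siblings, a rise of 6.68 ± 0.51 (edgeR adjusted p = 2.19e-07). Its relative atp2a1l had 858 and 697 mutant reads against 15 and 4 sibling reads, a rise of 5.01 ± 0.49. Both were higher in sibling replicate 1 than in sibling replicate 2, and neither sibling library came near a mutant one.

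Ryanodine receptors release the stored calcium. RYR3 had 585 and 499 mutant reads against 1 and 1 sibling reads, a rise of 7.64 ± 0.48 (edgeR adjusted p = 5.31e-08), and the skeletal RYR1 gene ENSDARG00000023797 had 482 and 411 mutant reads against 4 and 2 sibling reads, a rise of 5.85 ± 0.44. The other RYR1 gene, ENSDARG00000011422, was outside the naming rule and had 89 and 86 mutant reads against 3 and 3 sibling reads (3.50 ± 0.46). The calsequestrin gene CASQ1 (ENSDARG00000038716), the calcium buffer inside the store, had 108 and 138 mutant reads against 0 in both siblings, at least 32.4-fold higher. Outside the naming rule, cardiac CASQ2 had 22 and 19 mutant reads against 0 in both siblings and the channel subunit CACNG1 (ENSDARG00000008772) 23 and 17 mutant reads against 0 in both siblings, at least 5.40-fold and 5.27-fold higher. Cardiac RYR2, with 8 and 6 mutant reads against 0 in both siblings, had too few for the test.

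Parvalbumins bind calcium in the cytosol and speed relaxation. All 6 tested rose, where 35.2% of all tested genes rose, and 4 of the 6 are the muscle forms. Of the 6, 3 had 0 reads in both siblings and passed the count filter through mutant reads alone. pvalb1 had read counts of 3617 and 3338 in mutants, against 32 and 12 in siblings, or 3753 ± 241 CPM in mutants and 59.8 ± 37.7 CPM in siblings, a rise of 5.97 ± 0.51 (edgeR adjusted p = 5.88e-07). For pvalb2 there were 2133 and 1926 mutant reads against 8 and 6 sibling reads, a rise of 6.83 ± 0.43. pvalb3 had 427 and 208 mutant reads against 0 in both siblings, at least 83.6-fold higher, with the mutant libraries further apart than for the other muscle parvalbumins. pvalb4 had 133 and 148 mutant reads against 9 and 3 sibling reads, a smaller rise of 3.20 ± 0.45, and an adjusted p of 0.0516 without mutant replicate 1. pvalb7, a neuronal form, had 25 and 24 mutant reads against 0 in both siblings, at least 6.45-fold higher, and its call was lost without either mutant library (adjusted p = 0.104 and 0.0636). pvalb9, sorted here with other tissues, was singled out after its values were seen. It had 4 and 2 mutant reads against 67 and 0 sibling reads, the reverse order in a single library, and was not tested.

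Creatine kinases restore ATP beside the myosin motor. The cytosolic muscle genes ckma and ckmb had 1522 and 1431 mutant reads against 10 and 6 sibling reads for the first and 1401 and 1283 mutant reads against 10 and 9 sibling reads for the second, rises of 6.18 ± 0.42 and 5.79 ± 0.40 (edgeR adjusted p = 9.65e-08 and 9.31e-08). The sarcomeric mitochondrial CKMT2 gene ENSDARG00000039929 had 108 and 117 mutant reads against 2 and 0 sibling reads, a rise of 5.38 ± 0.63. The other, ENSDARG00000069615, was at least 6.19-fold higher, and with mutant replicate 1 or mutant replicate 2 left out its adjusted p was 0.0999 or 0.0794. CKMT1B, the form of other tissues, did not pass, at 36.2 ± 14.8 CPM in mutants and 24.5 ± 7.36 CPM in siblings (0.55 ± 0.46), though it rose with total-count and ribosomal protein scaling. SMYD1, which helps to fold and assemble myosin, had in its gene ENSDARG00000009280 89 and 76 mutant reads against 1 and 0 sibling reads, a rise of 5.84 ± 0.69.

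**Figure D4:**
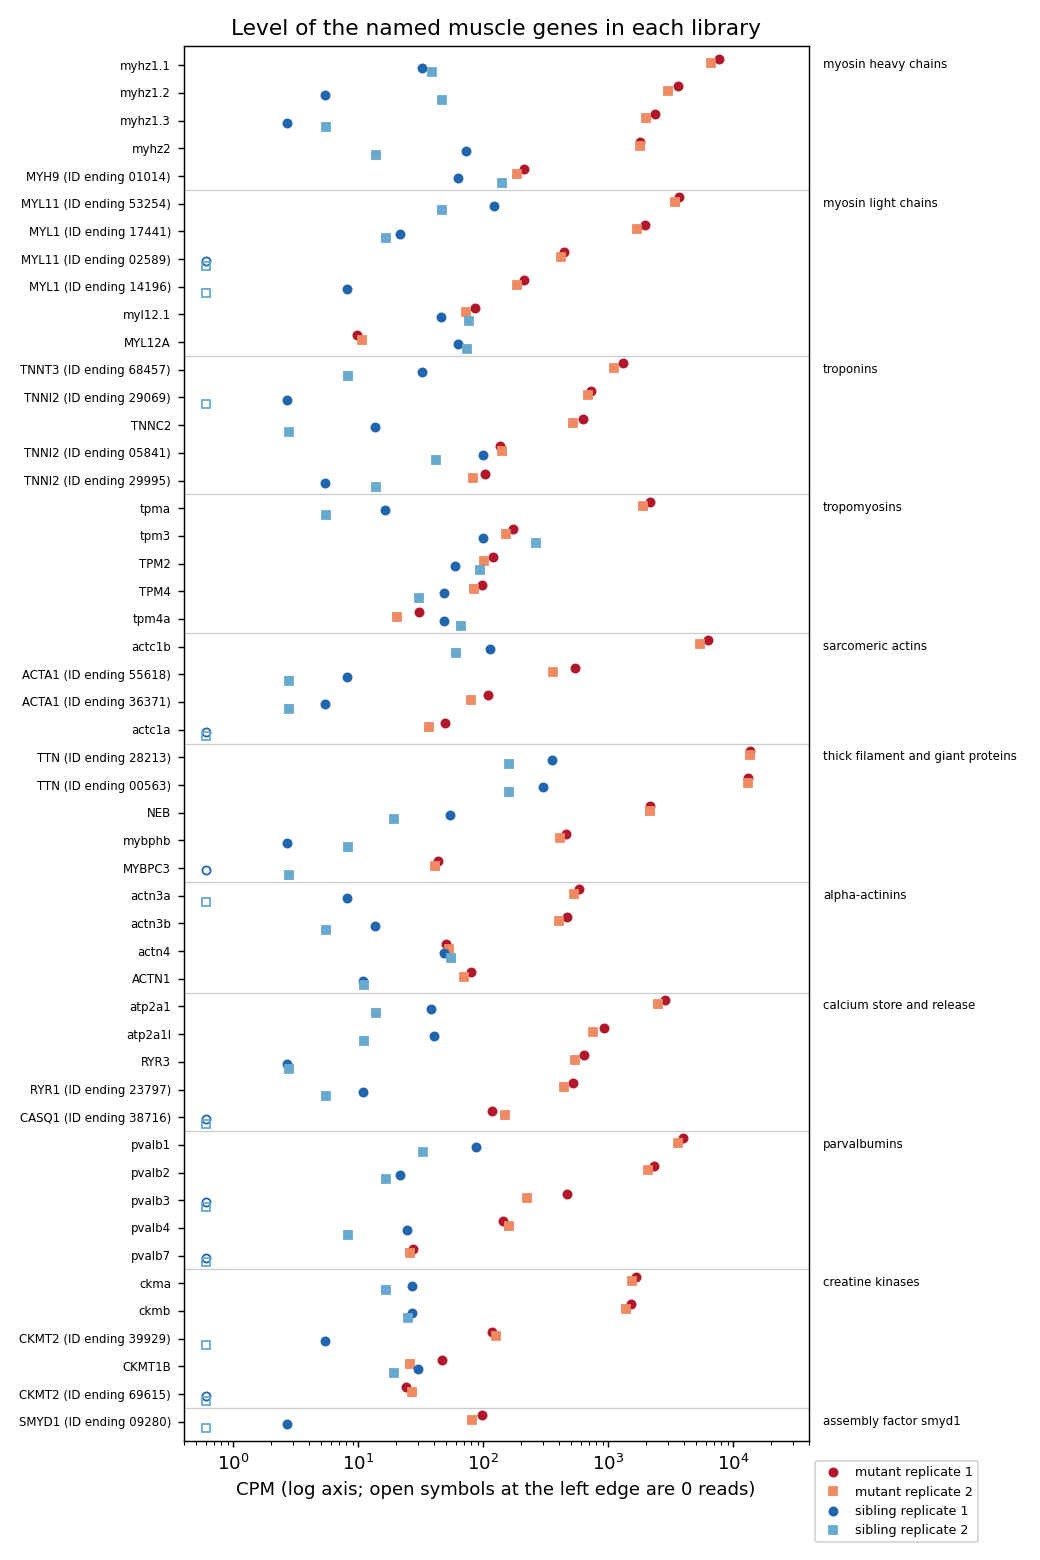
Level of the 50 named muscle genes in each library (CPM, log axis), grouped by role, with open symbols at the left edge for 0 reads. Most fast and shared genes lie far apart between groups, such as myhz1.1 at 7117 ± 743 CPM in mutants and 35.5 ± 4.39 CPM in siblings. The groups overlap for actn4, tpm3, myl12.1 and CKMT1B, and for TPM2 they lie close without overlap.

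Ratios between classes within a library do not depend on scaling between libraries. The log2 ratio of striated to smooth and non-muscle reads was 6.42 and 6.42 in mutants and 2.07 and 0.86 in siblings, a difference of 4.95. With 2 libraries against 2, an exact permutation test cannot go below p = 0.333 (two-sided), which each of the 3 ratios reached. For fast over slow the log2 ratio was 8.92 and 8.54 in mutants and 6.005 and 6.10 in siblings, a difference of 2.68 that rests on 5 and 2 slow reads in the siblings. The slow sum, 70 and 81 reads in mutants, leaves out the smyhc genes, whose symbols begin otherwise. A list of 3 striated myosins outside the stems, which holds them, had 616 and 659 mutant reads against 0 and 4 sibling reads. The sum thus misses many slow reads of the mutants, and the difference does not describe slow muscle as a whole. A ratio with these genes added was not computed. Fast over cardiac gave 7.06 and 7.26 in mutants and 4.16 and 2.24 in siblings, a difference of 3.96. That last ratio turned on tpm4a, which gave all 18 and 24 of 29 cardiac reads in siblings. With tpm4a left out and 0.5 reads added to each sum, an alternative chosen after seeing the data, it was 7.22 and 7.40 in mutants and 9.33 and 4.64 in siblings, and the difference was 0.33. The siblings then lay on either side of the mutants.

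**Figure D5:**
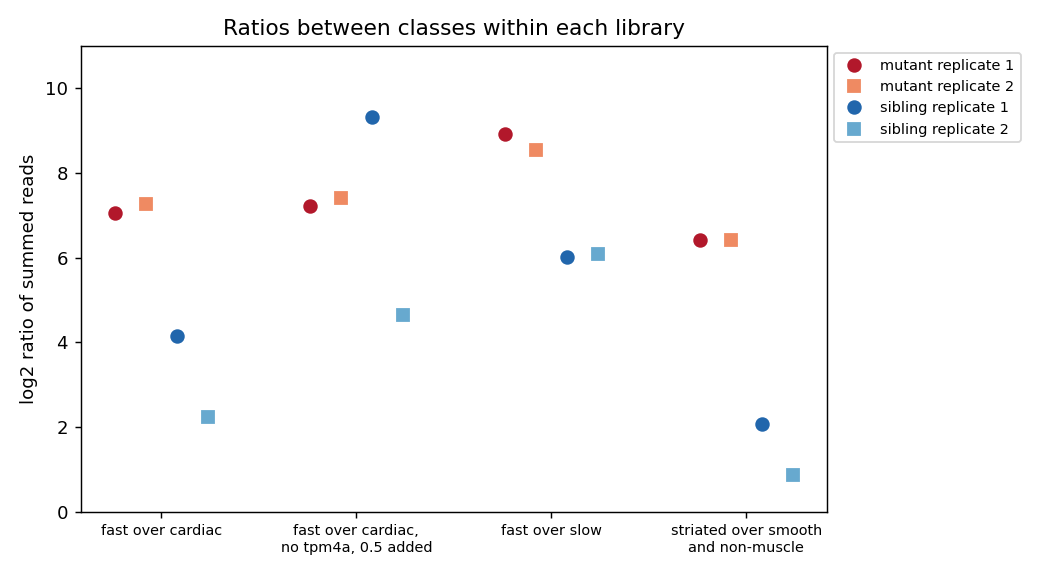
Log2 ratio of summed reads between classes within each library. Striated over smooth and non-muscle reads stood at 6.42 and 6.42 in mutants and 2.07 and 0.86 in siblings, and fast over cardiac overlapped between groups once tpm4a was left out.

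Genes of muscle outside the symbol stems were read from lists in the same way, against 35.2% higher and 25.9% lower over all tested genes. With DESeq2 21.0% of all genes were higher, and with no count filter 6.45%. With either mutant library left out, too, a smaller share of all genes rose. Counts of list genes in those settings stand beside these smaller shares. Slow skeletal myosins are among the genes of the lists, since their symbols begin otherwise. smyhc1, the main slow heavy chain of the larva, had read counts of 576 and 630 in mutants, against 0 and 3 in siblings, a rise of 7.24 ± 0.59 (edgeR adjusted p = 4.68e-07). smyhc2 had 37 and 29 mutant reads against 0 and 1 sibling reads, a rise of 4.52 ± 0.83, and with mutant replicate 1 left out 1 gene of this list rose.

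Of the Z-disc, M-band and assembly list 30 of 34 tested genes rose and 1 fell (median log2 fold change 5.21, or 3.34 using the bound where siblings had 0 reads). Among the 34, 13 had 0 reads in both siblings and passed the count filter through mutant reads alone. obscnb, an obscurin that ties the sarcomere to the reticulum, had 323 and 264 mutant reads against 2 and 3 sibling reads, and the M-band protein MYOM2 had 293 and 279 mutant reads against 6 and 1 sibling reads, rises of 5.50 ± 0.46 and 4.99 ± 0.51. The XIRP2 gene ENSDARG00000071113 did not pass, at 0.62 ± 0.31. HSPB8, a small heat shock protein also used outside muscle, fell, at -2.41 ± 0.37, although 0 genes of the list fell with total-count or ribosomal protein scaling or with either mutant library left out. Those that rose came to 12 with mutant replicate 1 left out and to 17 with mutant replicate 2 left out.

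In excitation-contraction coupling, 13 of 20 tested genes rose and 1 fell (median log2 fold change 3.60, or 2.32 using the bound where siblings had 0 reads). Mutant reads alone took 8 of the 20 through the count filter, with 0 reads in both siblings. The 3 with the highest mean level, SYPL2 (ENSDARG00000055307), the broadly used Serca2 pump gene ATP2A2 and asph, did not pass, at -0.53 ± 0.33, -0.46 ± 0.33 and -0.05 ± 0.35. ASPH fell, at -1.56 ± 0.41, and 0 of the list fell with total-count or ribosomal protein scaling, DESeq2 or no count filter, or with mutant replicate 1, mutant replicate 2 or sibling replicate 1 left out. Genes of the triad, chosen after their values were seen, were the junctophilin JPH2, with 90 and 69 mutant reads against 0 in both siblings, and STAC3, with 15 and 22 mutant reads against 0 in both siblings, at least 20.9-fold and 4.87-fold higher. Those that rose came to 3 and 6 with mutant replicate 1 and mutant replicate 2 left out.

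For the dystrophin complex, 8 of 11 tested genes rose and 1 fell (median log2 fold change 2.52, or 1.93 using the bound where siblings had 0 reads). Among the 11, 3 had 0 reads in both siblings and passed the count filter through mutant reads alone. The sarcoglycan sgcg had 145 and 152 mutant reads against 28 and 15 sibling reads and the dystroglycan gene DAG1 105 and 130 mutant reads against 7 and 9 sibling reads, rises of 1.45 ± 0.36 and 2.52 ± 0.39, while utrophin utrn did not pass (0.61 ± 0.36). With total-count or ribosomal protein scaling, DESeq2, no or a stricter count filter, or with mutant replicate 1, mutant replicate 2 or sibling replicate 1 left out, 0 of the complex fell. Fewer genes of the complex rose with either mutant library left out, as over all tested genes. With no count filter 5 rose, where 6.45% of all genes rose. At the neuromuscular junction 3 of 4 tested genes rose and 0 fell (median log2 fold change 3.20, or 1.97 using the bound where siblings had 0 reads). Mutant reads alone took 1 of the 4 through the count filter, with 0 reads in both siblings. The sodium channel scn4ab and the collagen-tailed COLQ rose by 4.38 ± 0.82 and 2.01 ± 0.64, and the acetylcholine receptor CHRNA1 did not pass (1.49 ± 0.65). With mutant replicate 1 left out 0 of them rose, and with mutant replicate 2 left out 1. Of the myogenic and cardiac transcription factors 6 of 8 tested genes rose and 0 fell (median log2 fold change 2.08, or 1.88 using the bound where siblings had 0 reads), with 0 higher with mutant replicate 1 left out, 1 with mutant replicate 2 left out and 3 with DESeq2. MEF2D, SOX6 and the MEF2C gene ENSDARG00000029764 had 64 and 46 mutant reads against 6 and 10 sibling reads, 42 and 45 mutant reads against 7 and 5 sibling reads, and 65 and 42 mutant reads against 0 in both siblings, and all 3 rose. Among the 8 tested factor genes, 2 had 0 reads in both siblings and passed the count filter through mutant reads alone. The myogenic factor genes MYOD1, with 8 and 5 mutant reads against 0 in both siblings, and MYOG, with 5 and 4 mutant reads against 0 in both siblings, had too few for the test.

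The list of muscle energy and oxygen genes went both ways. In all, 14 of 23 tested genes rose and 6 fell (median log2 fold change 1.51). Mutant reads alone took 1 of the 23 through the count filter, with 0 reads in both siblings. Over all tested genes 35.2% were higher and 25.9% lower, so the share of the list that fell lay near that of all genes. The sum of the list was 3224 ± 52.5 CPM in mutants and 22837 ± 1866 CPM in siblings. GAPDH, GAMT and ENO3, the 3 with the highest mean level, fell, at -5.25 ± 0.43, -5.65 ± 0.40 and -4.08 ± 0.37. These genes serve other tissues too, and whether their fall goes with that of the hepatocyte list was not tested. AMPD1, the AMP deaminase of skeletal muscle, chosen after its values were seen, had 332 and 274 mutant reads against 1 and 1 sibling reads, a rise of 6.81 ± 0.52.

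Smooth muscle and heart were thinly covered. In the smooth muscle list 2 of 6 tested genes rose and 1 fell (median log2 fold change 0.30). DES (ENSDARG00000058656), the desmin of every muscle type, rose by 5.60 ± 0.68, the calponin-like TAGLN (ENSDARG00000033466) fell, at -1.41 ± 0.40, and acta2 did not pass (-0.11 ± 0.64). With total-count or ribosomal protein scaling 5 and 6 of the 6 rose and 0 fell, where 68.7% and 79.1% of all tested genes rose. With DESeq2 or no count filter 0 fell. Fewer genes of the list rose with either mutant library left out, and the fall did not hold there or with sibling replicate 1 left out. Of 14 heart genes outside the stems 1 passed the count filter, SLC8A1 (ENSDARG00000043406), with 42 and 46 mutant reads against 1 and 2 sibling reads, a rise of 3.47 ± 0.58. All 14 together held 78 and 79 mutant reads against 22 and 18 sibling reads. SLC8A1 thus gave most of the list's mutant reads and few of its sibling reads, and its rise does not stand for the other heart genes. The natriuretic peptide genes nppa and nppb had 2 reads or fewer in each library.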

How the data were processed

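The values are raw read counts per Ensembl gene, per the file headers, and were deposited by the authors for each library. TopHat2, HTSeq, DESeq2 and build GRCz10 are named without versions or roles, per the submitters' processing notes. How strand and reads with several alignments were handled is not given in the sources used here, so close paralogs are uncertain individually. Libraries were made from 1000 ng of total RNA after ribosomal RNA removal and read as 75 bp single ends, per the labels. Symbols came from a gene name table, and 40 of the 117 genes share a symbol with another and are told apart by Ensembl identifier.

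Counts were tested with edgeR 4.0.16 (R 4.3.3; default count filter by group, TMM scaling, robust quasi-likelihood fit) over all 8133 tested genes, with Benjamini-Hochberg adjustment over all of them. Fold changes are mutant over sibling, and the SE is the log2 fold change divided by the root of the F statistic. Where siblings had 0 reads, the fold is a lower bound against 3 reads over the sibling group. Named genes are, within each role, the 5 tested genes with the highest mean CPM and every gene that fell, and 3 per other list. List genes written in capitals were matched without the zebrafish paralog letter. The genes, lists and forms were chosen with earlier results of these data known. Alternatives were RLE, total-count and ribosomal protein scaling (83 genes), DESeq2 1.42.0, other count filters, a replicate block and leaving out each library. The code was tested on simulated data. Repeat families and sequences were not used here, and 1 gene that the naming rule selects is not reported here. Wilson 95% intervals cover counting error only.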

Additional observations from a re-analysis of the deposited data

How the results depend on the processing

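Over all genes, those higher and lower numbered 5585 and 1015 with total-count scaling (median log2 2.17) and 6433 and 655 with ribosomal protein scaling (median 3.11), against 2861 and 2104. DESeq2 gave 1706 higher and no count filter 1540. Leaving out 1 library gave 340 to 2405 higher and 924 to 2227 lower. Muscle genes that rose numbered 59 with DESeq2, 58 with no count filter, 76 with total-count scaling and 77 with ribosomal protein scaling, and 38 to 65 without 1 library. Those that fell were 1 with total-count scaling, 0 with ribosomal protein scaling, 1 with DESeq2 and 0 to 2 without 1 library. Smooth and non-muscle genes that rose were 10 with either of those scalings, 3 with no count filter and 1 to 6 without 1 library, and cardiac genes 0 to 5 and fast genes 19 to 24 without 1 library. The 3 ratios kept their sign without 1 library, at 3.002 to 4.92 for fast over cardiac and 4.35 to 5.56 for striated over smooth and non-muscle. Fast over slow, with the smyhc genes outside the slow sum, stood at 2.49 to 2.87. The ratio of summed levels was 39.9 to 91.6 for fast, 42.4 to 73.5 for shared and 1.58 to 1.96 for smooth and non-muscle genes without 1 library, and 163, 161 and 5.52 by share of gene reads, both chosen after seeing the data. For the log2 ratio of striated to smooth and non-muscle reads, leaving out the pair of TTN genes, chosen after seeing the data, gave 4.91. Deviations of same-numbered libraries correlated at 0.052 and no label pairs them; with the replicate block 65 muscle genes rose and 2 fell (2518 and 2051 over all genes), and 50 of 50 named genes kept their call and direction.

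Signs turned in 3 named genes. tpm3 was at 1.61 and 2.57 with total-count and ribosomal protein scaling, 0.18 with no count filter, 0.062 with a stricter filter (10 reads in each library of a group and 40 in all), and -0.66 to 0.73 with 1 library left out. tpm4a was at 0.54 and 1.49 with those scalings. actn4 was at 1.69 and 2.63 with them, 0.0173 with RLE, 0.0173 with DESeq2, 0.32 with no count filter, 0.20 with the stricter filter, and -0.071 to 0.13 with 1 library left out. The cause was not tested. More of the 50 named genes lost their call without mutant replicate 1 than without any other single library, and the cause was not tested. With DESeq2, and likewise with no count filter, MYH9, the TNNI2 gene with the smallest change, TPM4 and tpm4a did not pass. Too few reads for the test were found in 6 of 8 slow and 10 of 16 cardiac genes, against 5 of 32 fast genes and 23820 of all 31953 genes. The cause of these shares was not tested.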
